A study of Mus musculus with 8 samples.

Results

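The complement system was described through 34 genes that encode its components, receptors and regulators. The genes were chosen by name, as the rows of their Entrez identifiers, and make up 34 of the 27179 genes in the count table. They were measured by RNA sequencing in 8 whole primary tumours, 4 that grew from VC cells of the line 4T1.13 and 4 that grew from its miR-21-KD cells. This line is a metastatic mouse mammary carcinoma. Both groups were started with 100000 cells in the mammary fat pad of female BALB/c mice, which have intact immunity, and recovery was timed to the onset of regression of the knockdown tumours, for which the labels give day 14 and the methods of the study an earlier day. The miR-21-KD cells carried the miArrest lentiviral vector pEZX-AM03, in which the H1 promoter drives an RNA made to bind and hold mature miR-21, and the vector control (VC) cells carried the same vector with a scrambled sequence. Both lines therefore had the mCherry reporter and hygromycin B resistance, and several clones were pooled for each line. The vector acted in the injected cells, and the host cells of the tumour were not modified. The tumours of each group were numbered 1 to 4 by the labels, and values are given in that order.

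Complement is a cascade of plasma proteins that tags targets, attracts leucocytes and forms pores in membranes. In the classical pathway, C1q binds immune complexes or dying cells and activates the proteases C1r and C1s, which cleave C4 and C2, whereas in the lectin pathway mannose-binding lectins, ficolins and collectins act with the MASP proteases. Both routes and the alternative pathway of factor B and properdin meet at C3, whose cleavage leads on to C5 and the membrane attack complex of C5b to C9, and inhibitors in plasma and on host cells hold each step in check. The liver makes most plasma complement, but macrophages, fibroblasts and tumour cells also transcribe many of these genes.

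miR-21 represses transcripts through its seed, bases 2 to 8, which are given in capitals because they set which complement transcripts hold a match. The sequence is from RefSeq, and its position is on GRCm38.p6.
mmu-miR-21a-5p, chr11:86584120-86584141, minus strand: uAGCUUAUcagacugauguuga
The gene Mir21a had a count of 0 in each of the 8 libraries, so the counts gave no check of the knockdown, which in any case sequesters the mature miRNA. The 7-base match of the seed, ATAAGCT, was in an annotated 3' UTR of 1 of the 34 genes, that of Colec12, a scavenger receptor, against 1103 of 13345 tested genes with a 3' UTR (8.27%). Colec12 was among the genes that rose, and of the 4 that fell none held the match. A match is a description of the letters and not of a site in use.

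The libraries held 12134849 to 13592695 counts in VC and 12550898 to 12783800 in miR-21-KD tumours, at which 3 counts, the most that a count of 0 allows, stand for 0.221 to 0.245 CPM (read counts scaled for library size with the TMM factors of edgeR). Such limits cover counting error only. The keratin genes Krt8 and Krt18, which mark the carcinoma cells, were present in every tumour, at 188 to 1212 CPM for Krt18. The tumours of a group differed by more than sampling noise, and p-values measure the spread between these tumours. In whole tumours, fewer cells of a type and less RNA per cell cannot be told apart.

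Complement transcripts were on the whole more abundant in the miR-21-KD tumours. Of the 34 genes, 28 had enough counts to be tested, and 16 of them rose and 4 fell at an adjusted p under 0.05 (edgeR's quasi-likelihood test, Benjamini-Hochberg adjustment over all tested genes), with 8 that did not pass. The genes that rose were C1qa, C1qb, C1qc, C1ra, C1s1, C4b, Colec12, C3, Cfp, Hc, C6, C3ar1, C5ar1, Serping1, Cd55 and Cd59a, and those that fell were Masp1, Cd93, C1qbp and Clu. Among all 14382 tested genes, 39.1% passed in either direction, with 19.6% higher and 19.5% lower. The median log2 fold change was 1.06 over the 28 tested complement genes and -0.01 over all tested genes. The 4 miR-21-KD tumours all lay above the 4 VC tumours for 9 of the tested complement genes and all below for 4, against 16.3% and 18.9% of all tested genes. Of the 28, 27 reached the level of the filter in all 8 tumours and Cfi in fewer, so that for these 27 the filter did not turn on 1 group.

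**Figure D1:**
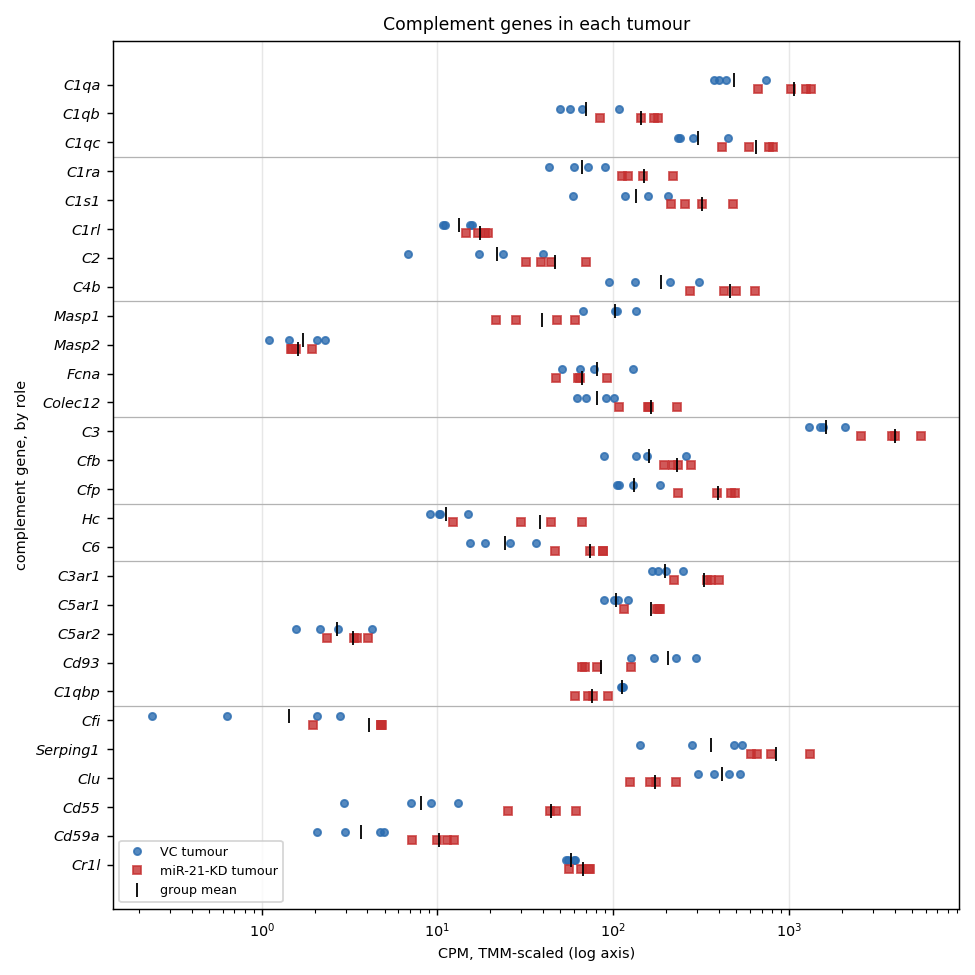
TMM-scaled CPM (log axis) of the 28 tested complement genes in each of the 4 VC tumours (circles) and 4 miR-21-KD tumours (squares), with a vertical tick at each group mean and lines between roles. The miR-21-KD squares lie to the right of the VC circles for 9 genes and to the left for Masp1, Cd93, C1qbp and Clu.

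The number of genes that rose depended on single tumours. It was 7 without VC replicate 3, where 1449 of 14636 tested genes rose, and 11 without VC replicate 2, where 1702 of 14642 did. It was also 11 without miR-21-KD replicate 1, 3 or 4, where 1862 of 14467, 1982 of 14528 and 1754 of 14460 tested genes rose. It was 19 without VC replicate 4, where 2980 of 14599 rose. The 4 complement genes that fell passed in each of these fits, in which 1487 to 2689 of all tested genes fell. With all tumours, 2826 of 14382 tested genes rose and 2800 fell. The genes C1ra, Colec12, C3, Cfp, C6, Cd55 and Cd59a passed in every fit at this threshold that asked for no minimum fold change, including those without each tumour in turn. The 4 miR-21-KD tumours were not alike. Replicate 2 was the lowest of them for 16 of the 16 genes that rose, and replicate 1 was the highest for 11. Among the VC tumours, replicate 4 was the highest for 11 of the 16 and replicate 1 for the other 5.

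The counts of the 34 genes together made up 0.528%, 0.429%, 0.433% and 0.611% of the 4 VC libraries and 1.26%, 0.657%, 0.881% and 1.03% of the 4 miR-21-KD libraries. All miR-21-KD tumours thus lay above all VC tumours, with the smallest gap between miR-21-KD replicate 2 and VC replicate 4. C3 alone held 24.9% to 39.6% of these counts in VC and 39.2% to 43.7% in miR-21-KD tumours. Per kb of exon, which allows genes to be set side by side, C1qa had the highest mean of the 34 in both groups, at 470 CPM per kb in VC and 1029 CPM per kb in miR-21-KD tumours. The order is of group means, and in VC replicate 1 the level of C3 per kb was above that of C1qa. C3 followed at 315 and 783 CPM per kb, then C1qc at 157 and 336 and Serping1 at 156 and 362 CPM per kb. C1qc and Serping1 did not differ in either group beyond the spread between tumours. Clu was next in VC tumours at 121 CPM per kb and stood at 50.1 CPM per kb in miR-21-KD tumours. There it lay below Cfp at 228, C1qb at 133, C1s1 at 102, Cfb at 81.8, C4b at 80.9, C3ar1 at 76.8 and C5ar1 at 64.2 CPM per kb, among others.

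All 3 chains of C1q, the recognition molecule of the classical pathway, rose, by 2.06- to 2.19-fold. C1qa had 376, 439, 398 and 742 CPM in the VC tumours and 1246, 672, 1024 and 1337 CPM in the miR-21-KD tumours (log2 fold change 1.13 ± 0.28 SE, adjusted p = 0.0162). C1qc had 233, 286, 242 and 451 CPM in the VC and 769.5, 419, 596 and 814 CPM in the miR-21-KD tumours (log2 fold change 1.10 ± 0.27 SE, adjusted p = 0.0161). For both chains VC replicate 4 lay above miR-21-KD replicate 2, so the groups overlapped. C1qb, the least abundant chain, had 49.7, 66.4, 56.7 and 108 CPM in the VC and 172, 84.4, 144 and 179 CPM in the miR-21-KD tumours, with the same overlap (log2 fold change 1.04 ± 0.30 SE, adjusted p = 0.0257). The proportions of the chains varied little between tumours. C1qa made up 55.5% to 58.1%, C1qb 7.19% to 8.39% and C1qc 33.8% to 36.1% of the C1q counts of a tumour over both groups. The genes lie side by side on the minus strand of chromosome 4 (GRCm38), C1qb at chr4:136880129-136886187, C1qc at chr4:136889804-136893065 and C1qa at chr4:136895917-136898803, with gaps of 3.62 kb and 2.85 kb. C1qa and C1qc did not pass without VC replicate 3 (adjusted p = 0.0523 and 0.0518), and C1qb did not pass without VC replicate 1, 2 or 3 or without miR-21-KD replicate 1, 3 or 4 (adjusted p from 0.0539 to 0.0739).

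The proteases that C1q activates, and C4, which they cleave, also rose. C1ra had 71.9, 43.2, 59.8 and 89.5 CPM in the VC and 218, 112, 122 and 149 CPM in the miR-21-KD tumours (log2 fold change 1.19 ± 0.27 SE, adjusted p = 0.0126). C1s1 had 158, 58.9, 116 and 205 CPM in the VC and 484, 212, 258 and 319.7 CPM in the miR-21-KD tumours (log2 fold change 1.24 ± 0.38 SE, adjusted p = 0.0332). The groups did not overlap for either protease. C4b, which encodes C4, had 211, 94.3, 133 and 308 CPM in the VC and 638, 273, 429 and 503 CPM in the miR-21-KD tumours (log2 fold change 1.30 ± 0.39 SE, adjusted p = 0.0286), where VC replicate 4 lay above miR-21-KD replicate 2. The proteases C1rl and C2 did not pass. C1rl, which resembles C1r, had a mean of 13.2 ± 2.62 CPM in the VC and 17.4 ± 2.12 CPM in the miR-21-KD tumours (log2 fold change 0.40 ± 0.17 SE, adjusted p = 0.0856). C2, whose product is cut to form the C3 convertase, had 23.7, 6.78, 17.2 and 39.6 CPM in the VC and 70.4, 38.8, 31.9 and 44.5 CPM in the miR-21-KD tumours (log2 fold change 1.09 ± 0.47 SE, adjusted p = 0.0919), and with a block for the replicate number it passed, at a log2 fold change of 1.25 (adjusted p = 0.0377). It also passed without VC replicate 4, at a log2 fold change of 1.54. C1s1 and C4b did not pass without VC replicate 2 or 3 or without miR-21-KD replicate 1, 3 or 4 (adjusted p from 0.0530 to 0.0880). These fits had no block, and with the block on all tumours C1s1 and C4b passed (adjusted p = 0.00591 and 0.00389). C1ra and C1s1 have the close copies C1rb and C1s2 in mice, and C4b has C4a, so reads may have been split between copies, and 42.8% of the exon bases of C2 are shared with the annotated gene Gm20547, which also covers 79.5% of those of Cfb, so the values of C2 and Cfb are uncertain.

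C1rl, C1ra and C1s1 lie next to one another on chromosome 6, with gaps of 1.76 kb and 6.90 kb (GRCm38). The promoter of C1ra is shown because it holds matches to both TTGCNNAA, a motif of C/EBP factors, and TTCNNNGAA, the palindrome bound by STAT factors, and that of C1qc because it is the only complement promoter with a match to GAGGAAGT, a PU.1 motif. The windows run from 250 bases before to 50 bases after the RefSeq start (GRCm38.p6), 5′ to 3′ on the strand of the gene, with the matches in capitals. With the RefSeq start as base 1, the matches of C1ra begin at bases 17 and 33, in the transcribed part. That of C1qc begins 195 bases before the start.
C1ra, chr6:124512371-124512670, plus strand: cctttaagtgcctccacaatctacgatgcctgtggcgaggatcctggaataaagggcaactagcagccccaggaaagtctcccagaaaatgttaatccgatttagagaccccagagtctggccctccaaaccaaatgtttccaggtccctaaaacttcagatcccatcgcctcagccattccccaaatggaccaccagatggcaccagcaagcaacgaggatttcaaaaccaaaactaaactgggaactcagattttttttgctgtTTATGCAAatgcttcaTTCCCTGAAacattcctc
C1qc, chr4:136892865-136893164, minus strand: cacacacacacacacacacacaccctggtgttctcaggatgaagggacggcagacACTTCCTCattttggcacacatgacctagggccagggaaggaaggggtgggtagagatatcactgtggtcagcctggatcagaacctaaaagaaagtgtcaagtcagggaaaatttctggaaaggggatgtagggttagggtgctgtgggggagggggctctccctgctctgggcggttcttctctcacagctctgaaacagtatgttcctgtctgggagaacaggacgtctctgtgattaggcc

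Of the 7 genes of the lectin pathway, 4 were tested, of which 1 rose, 1 fell and 2 did not pass, so that its shares were near the 19.6% higher and 19.5% lower of all tested genes. Masp1, whose protease activates MASP-2 in this pathway, had 106, 135, 102 and 67.6 CPM in the VC and 21.6, 60.5, 48.1 and 28.1 CPM in the miR-21-KD tumours. It fell 2.60-fold, with no overlap between groups (log2 fold change -1.38 ± 0.34 SE, adjusted p = 0.0155). Colec12, the scavenger receptor with a collectin domain, had 101, 70.0, 62.6 and 91.4 CPM in the VC and 230.2, 107, 158 and 159.6 CPM in the miR-21-KD tumours, again with no overlap (log2 fold change 1.01 ± 0.24 SE, adjusted p = 0.0144). The ficolin gene Fcna had 64.7, 129, 51.2 and 77.7 CPM in the VC and 64.4, 47.1, 92.7 and 63.4 CPM in the miR-21-KD tumours and did not pass (log2 fold change -0.27 ± 0.30 SE, adjusted p = 0.492). Masp2, the protease that cleaves C4 and C2 in this pathway, stood near the lower end of the tested range, at 1.72 ± 0.549 CPM in the VC and 1.61 ± 0.222 CPM in the miR-21-KD tumours (log2 fold change -0.09 ± 0.28 SE, adjusted p = 0.81), and 54.9% of its exon bases lie opposite Tardbp. The mannose-binding lectins Mbl1 and Mbl2, which are made in the liver, had 0 counts in all 8 tumours, and the ficolin gene Fcnb had 0 to 13 counts and was not tested.

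C3, the protein on which all routes converge, had 2093, 1302, 1566 and 1510.0 CPM in the VC and 5644, 2583, 3843 and 4042 CPM in the miR-21-KD tumours. The lowest miR-21-KD tumour lay above the highest VC tumour, and C3 rose 2.49-fold (log2 fold change 1.32 ± 0.25 SE, adjusted p = 0.00799). Cfp encodes properdin, which stabilises the alternative C3 convertase and is made by leucocytes. It had 129, 106, 108 and 184 CPM in the VC and 492, 233, 389.5 and 469 CPM in the miR-21-KD tumours and rose 3.01-fold, also with no overlap (log2 fold change 1.59 ± 0.27 SE, adjusted p = 0.0066). Cfb, the gene of factor B, the protease of that convertase, had 155, 88.2, 135 and 260.4 CPM in the VC and 278, 218, 194 and 234 CPM in the miR-21-KD tumours and did not pass (log2 fold change 0.53 ± 0.29 SE, adjusted p = 0.169), and VC replicate 4 lay above 3 of the 4 miR-21-KD tumours. Without VC replicate 4, Cfb passed at a log2 fold change of 0.87. Cfb and C2 are adjacent on chromosome 17, 85 bp apart (GRCm38), and were highest in the same tumour of each group, VC replicate 4 and miR-21-KD replicate 1. This was not particular to neighbours, since C1s1, Cfp and Serping1, on other chromosomes, were highest in the same tumours.

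The promoter of C3 is shown because C3 held the most counts of the 34 genes. It has 1 match to TTGCNNAA, which starts 45 bases before the RefSeq start.
C3, chr17:57228087-57228386, minus strand: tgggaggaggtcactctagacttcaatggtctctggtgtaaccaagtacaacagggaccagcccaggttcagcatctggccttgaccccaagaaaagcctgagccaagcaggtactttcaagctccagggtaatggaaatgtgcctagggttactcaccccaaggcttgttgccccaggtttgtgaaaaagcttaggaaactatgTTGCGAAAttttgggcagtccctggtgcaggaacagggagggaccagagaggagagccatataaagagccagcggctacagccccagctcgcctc
A promoter was given for 24 of the 34 genes. Searched on both strands, TTGCNNAA was found in 6 of these genes (C1ra, C1rl, C1s1, C3, C5ar2 and Fcnb) and in 10.8% of all 32851 promoters of the same length. TTCNNNGAA was found in 3 (C1ra, C7 and Masp2) and in 8.3% of all promoters, the interferon-stimulated response element in 2 (Cd46 and Cd59a) and in 3.44%, and GAGGAAGT in 1 and in 3.2%. The matches in the complement promoters did not overlap one another. Of the 12 genes that rose and had a promoter, 3 held TTGCNNAA and 1 each held the other motifs.

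The tested genes of the terminal pathway, those of C5 and C6, rose more than 3-fold. Hc encodes C5, which is cleaved to the leucocyte attractant C5a and to C5b. It had 14.97, 10.3, 9.06 and 10.2 CPM in the VC and 66.6, 12.3, 29.9 and 44.1 CPM in the miR-21-KD tumours (log2 fold change 1.78 ± 0.45 SE, adjusted p = 0.0171). Replicate 2 was the exception among the miR-21-KD tumours and lay within the range of the VC tumours, and Hc did not pass without VC replicate 3 (adjusted p = 0.0531). C6, which binds C5b to begin the pore, had 26.0, 18.7, 15.3 and 36.5 CPM in the VC and 87.6, 46.8, 73.8 and 87.6 CPM in the miR-21-KD tumours, with no overlap (log2 fold change 1.62 ± 0.30 SE, adjusted p = 0.00755). C7, the next protein of the pore, was near the limit of detection and was not tested. Its counts were 5, 0, 0 and 1 in the VC tumours and 16, 8, 6 and 11 in the miR-21-KD tumours. C8g, a chain of C8, had 5 to 9 counts in VC and 6 to 13 in miR-21-KD tumours and was not tested.

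The receptors moved in both directions. The receptors for the anaphylatoxins C3a and C5a, carried mainly by myeloid cells, rose 1.66-fold (C3ar1) and 1.59-fold (C5ar1). C3ar1 had 199, 179.7, 166 and 250.0 CPM in the VC and 398, 222, 361 and 339.9 CPM in the miR-21-KD tumours (log2 fold change 0.73 ± 0.20 SE, adjusted p = 0.0209). C5ar1 had 106, 101, 88.2 and 121 CPM in the VC and 182, 115, 185 and 179 CPM in the miR-21-KD tumours (log2 fold change 0.67 ± 0.17 SE, adjusted p = 0.0163). In both cases the groups overlapped through miR-21-KD replicate 2. The second C5a receptor, C5ar2, had 2.14, 2.71, 1.58 and 4.25 CPM in the VC and 4.04, 2.36, 3.49 and 3.37 CPM in the miR-21-KD tumours and did not pass (log2 fold change 0.31 ± 0.33 SE, adjusted p = 0.466). C5ar1 did not pass without VC replicate 3 (adjusted p = 0.0518), and C3ar1 did not pass without VC replicate 2 or 3 or without miR-21-KD replicate 1, 3 or 4 (adjusted p from 0.0520 to 0.0630).

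Cd93 and C1qbp, both described as binding C1q, fell. Cd93, a surface lectin of endothelial and myeloid cells, had 172, 297, 127 and 229 CPM in the VC and 127, 80.5, 68.7 and 66.8 CPM in the miR-21-KD tumours and fell 2.41-fold (log2 fold change -1.27 ± 0.30 SE, adjusted p = 0.0138). The groups came close, at 126.9 CPM in VC replicate 3 and 126.8 CPM in miR-21-KD replicate 1, but did not overlap. C1qbp, whose product is found largely in mitochondria, had 111, 112, 112 and 113 CPM in the VC and 61.0, 93.3, 72.0 and 76.8 CPM in the miR-21-KD tumours (log2 fold change -0.56 ± 0.12 SE, adjusted p = 0.0109). Its VC values had an SD of 0.977 CPM, and the miR-21-KD values all lay below them.

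Of the 7 regulators, 6 were tested, of which 3 rose and 1 fell, against 19.6% and 19.5% of all tested genes. Cd55, the decay-accelerating factor that takes apart C3 convertases on the cell surface, showed the largest fold change of the 28 tested genes. This held in the edgeR fit of all tumours but not in every alternative fit, where Cfi reached a log2 fold change of 2.85 and Cd55 at most 2.81. It had 13.1, 2.95, 7.09 and 9.24 CPM in the VC and 61.7, 25.2, 43.7 and 47.4 CPM in the miR-21-KD tumours and rose 5.48-fold, with no overlap (log2 fold change 2.45 ± 0.43 SE, adjusted p = 0.00693). Cd59a, which blocks the pore at the membrane, had 4.94, 2.07, 2.995 and 4.74 CPM in the VC and 11.3, 7.15, 9.98 and 12.4 CPM in the miR-21-KD tumours, also with no overlap (log2 fold change 1.47 ± 0.30 SE, adjusted p = 0.0101). Their close copies Cd55b, at 0 counts in all tumours, and Cd59b, at 1 to 17 counts, gave few reads.

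Serping1 encodes the C1 inhibitor, which inactivates C1r, C1s and the MASP proteases. It had 488, 141, 280.3 and 540.2 CPM in the VC and 1312, 611, 659 and 787 CPM in the miR-21-KD tumours. The groups did not overlap, but the spread within them was wide and the test was passed by a small margin (log2 fold change 1.22 ± 0.42 SE, adjusted p = 0.048). Serping1 did not pass without VC replicate 1, 2 or 3, without miR-21-KD replicate 1, 3 or 4, or with no filter on low counts (adjusted p from 0.0506 to 0.1231). These fits had no block for the replicate number, and with the block on all tumours Serping1 passed at a log2 fold change of 1.33 (adjusted p = 0.0096). Clusterin, a chaperone that binds the terminal complex, moved the other way. Its gene Clu had 305, 456, 375 and 527 CPM in the VC and 162, 125, 174 and 228 CPM in the miR-21-KD tumours and fell 2.41-fold, with no overlap (log2 fold change -1.27 ± 0.22 SE, adjusted p = 0.00679).

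Cfi encodes factor I, the plasma protease that destroys C3b and C4b, and was at a low level in all tumours. It had 2.06, 0.638, 0.236 and 2.78 CPM in the VC and 4.77, 1.97, 4.87 and 4.78 CPM in the miR-21-KD tumours and did not pass (log2 fold change 1.51 ± 0.63 SE, adjusted p = 0.0836), and the VC values included counts of 3 and 8. With the replicate block it passed at a log2 fold change of 1.69 (adjusted p = 0.0439), and it also passed without VC replicate 4, at 2.03. Cr1l, the rodent regulator also called Crry, had 60.3, 55.6, 54.1 and 59.8 CPM in the VC and 74.3, 56.0, 72.5 and 66.0 CPM in the miR-21-KD tumours (log2 fold change 0.23 ± 0.10 SE, adjusted p = 0.104). It did not pass, although without miR-21-KD replicate 2 it did, at a log2 fold change of 0.30. Cd46, a cofactor of factor I, had 4 to 11 counts a tumour and was not tested.

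**Figure D2:**
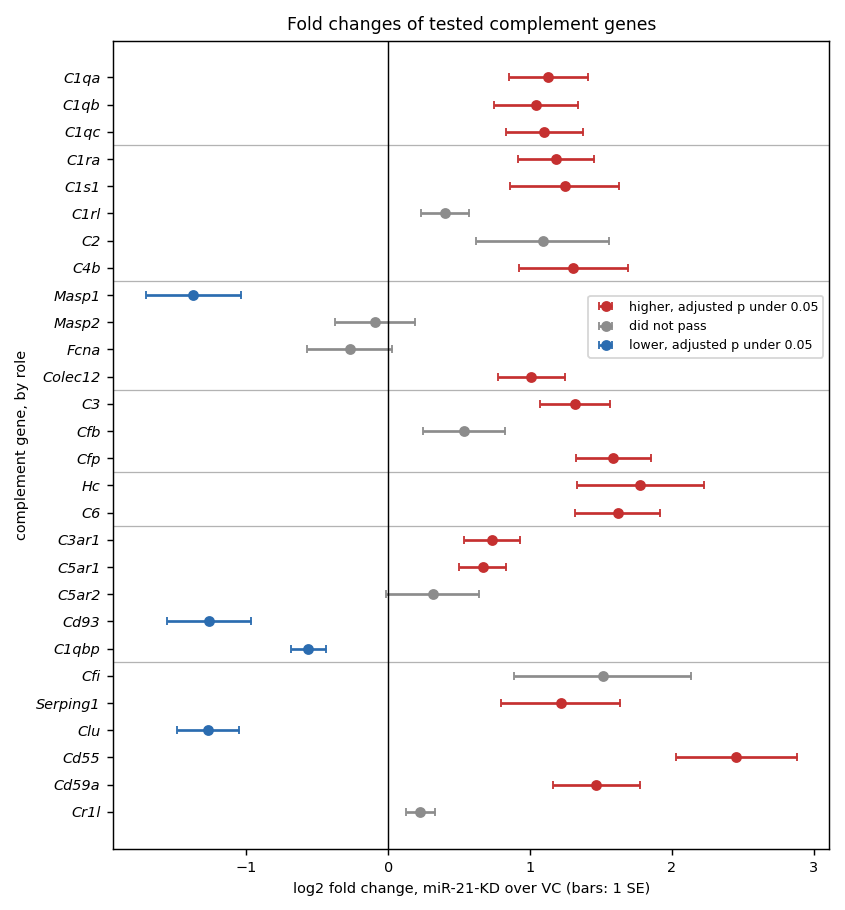
Log2 fold change of miR-21-KD over VC tumours for the 28 tested complement genes by role, from edgeR on 4 tumours a group, with bars of 1 SE. Cd55 lies farthest to the right at 2.45 and Masp1 farthest to the left at -1.38, and the 8 grey genes did not pass.

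A further 35 genes linked to complement were listed beside the 34, of which 14 were tested. Of these, 6 rose, none fell and 8 did not pass, with a median log2 fold change of 1.14, against 19.6% higher, 19.5% lower and a median of -0.01 over all tested genes. No gene fell in the tests of any other tool that was run, and none of the 14 had an unadjusted p under 0.05 with a negative fold change. Cfd, the adipocyte-made factor D that cleaves factor B, had 88.9, 16.0, 39.7 and 42.4 CPM in the VC and 298, 154, 218 and 539.8 CPM in the miR-21-KD tumours (log2 fold change 2.69 ± 0.55 SE, adjusted p = 0.00988). The groups did not overlap for Cfd. Genes that also rose were Itgam, a chain of complement receptor 3, of which 68.7% of the exon bases are shared with Gm49368 so that its value is uncertain (log2 fold change 0.98 ± 0.20 SE, adjusted p = 0.0101), Thbd, which encodes thrombomodulin (log2 fold change 0.96 ± 0.28 SE, adjusted p = 0.0289), and the gene copies C4a (log2 fold change 1.16 ± 0.38 SE, adjusted p = 0.0397) and C1rb (log2 fold change 1.11 ± 0.30 SE, adjusted p = 0.021).

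Of the abundant genes that did not pass, Itgb2, the partner chain of Itgam, had a log2 fold change of 0.64 (adjusted p = 0.0541), Itgax, the chain of complement receptor 4, 1.36 (adjusted p = 0.0591), C1s2 1.19 (adjusted p = 0.0599), the pentraxin Ptx3 1.17 (adjusted p = 0.1734) and Calr, which encodes the C1q-binding chaperone calreticulin, 0.10 (adjusted p = 0.4705). C8a, C8b and C9, the late proteins of the pore, had at most 6 counts in a tumour. With the replicate block 10 rose, against 3309 of all 14382 tested genes. Those gained were Itgb2 (log2 fold change 0.66, adjusted p = 0.0187), Itgax (1.56, adjusted p = 0.0189 with the block), C1s2 (1.20, adjusted p = 0.0129 with the block) and Vtn, which encodes vitronectin and had a log2 fold change of 1.29 without the block (adjusted p = 0.074) and 1.39 with it (adjusted p = 0.0214). The number that rose was 3 without VC replicate 3, miR-21-KD replicate 1 or miR-21-KD replicate 4, 4 without VC replicate 2 or miR-21-KD replicate 3, 9 without miR-21-KD replicate 2 and 10 without VC replicate 4. In the fits with 3 or 4, 1449 to 1982 of 14460 to 14642 tested genes rose. Without miR-21-KD replicate 2 it was 3290 of 14620, and without VC replicate 4 it was 2980 of 14599.

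Markers of several cell types moved with these genes, and their counts stand beside the 19.6% of all tested genes that rose. Of 10 macrophage and monocyte markers, 8 rose, and their summed level was 2736 to 4706 CPM in the VC and 6286 to 9963 CPM in the miR-21-KD tumours. This RNA of a mixed list is not a count of monocytes, which the study found reduced by flow cytometry in miR-21-KD tumours. Of 10 fibroblast markers, 8 rose, at 3593 to 9105 CPM in the VC and 11310 to 25160 CPM in the miR-21-KD tumours. All 8 adipocyte markers rose, at 95.8 to 366 CPM in the VC and 517 to 1347 CPM in the miR-21-KD tumours. For each of these lists the sums of the groups did not overlap, as was the case for the 34 complement genes, at 4222 to 6063 CPM in the VC and 6477 to 12900 CPM in the miR-21-KD tumours.

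Neutrophil markers, of which 2 of 9 tested rose, summed to 854 to 1535 CPM in the VC and 1642 to 3441 CPM in the miR-21-KD tumours, but this sum was carried by Mmp9. Without Mmp9, a setting added after the data were seen, it was 313 to 876 CPM in the VC and 417 to 929 CPM in the miR-21-KD tumours and the groups overlapped. The median log2 fold change of the 9 tested neutrophil markers was 0.757, from -0.16 for S100a8 to 2.49 for Ltf. T cell markers, of which 5 of 8 rose, summed to 45.5 to 168 CPM in the VC and 142 to 298 CPM in the miR-21-KD tumours. Of 8 endothelial markers 2 rose, with sums of 407 to 710 CPM in the VC and 613 to 874 CPM in the miR-21-KD tumours, and of 6 mast cell markers 1 rose, with sums of 164 to 358 and 262 to 334 CPM. The shares of neutrophil, endothelial and mast cell markers that rose were near that of all tested genes. The epithelial tumour cell markers did not move as 1 group, with 6 of 8 higher and Krt18 lower, and their sum was 1290 to 2215 CPM in the VC and 763 to 1869 CPM in the miR-21-KD tumours. Of 8 hepatocyte markers only Alb and Fgb were tested. Both rose, but the whole list summed to 0.798 to 2.58 CPM in the VC and 3.07 to 8.44 CPM in the miR-21-KD tumours, and in VC tumours 4 of its 8 markers, Apoa1, Ttr, Tat and Apoa2, had no more than 1 count each. The part of these cell types in the changes of the complement genes was not tested. An overlap here compares all tumours of one group with all of the other. Between tumours with the same replicate number, a comparison added after the data were seen, the miR-21-KD tumour had the higher sum in 4 of 4 pairs for T cell and for endothelial markers, in 3 of 4 for mast cell markers and for neutrophil markers without Mmp9, and in 1 of 4 for epithelial markers.

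**Figure D3:**
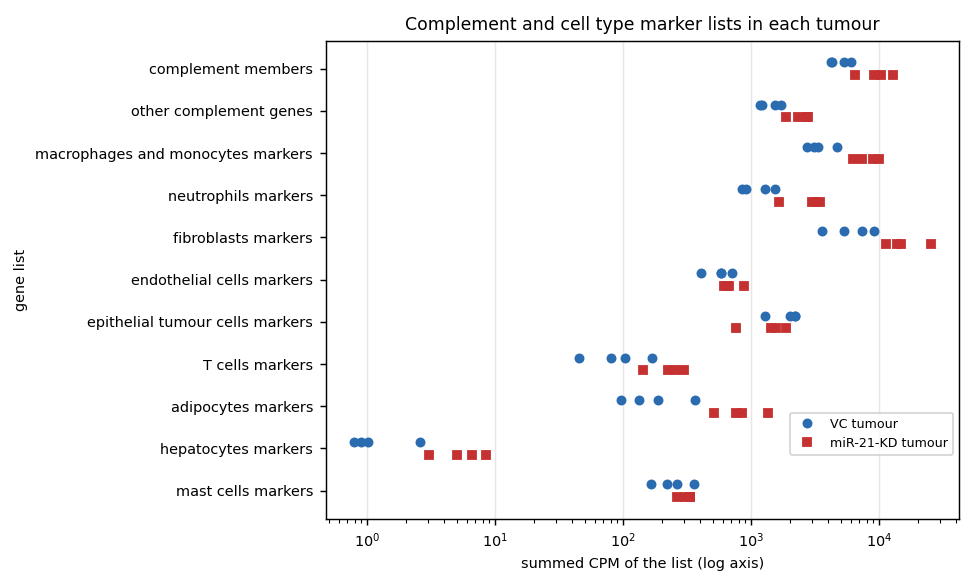
Summed TMM-scaled CPM (log axis) of the 34 complement genes, the 35 other complement genes and the 9 lists of cell type markers in each of the 4 VC tumours (circles) and 4 miR-21-KD tumours (squares). The macrophage, neutrophil, fibroblast, adipocyte and hepatocyte sums separate the groups as both complement sums do, whereas the endothelial, epithelial, T cell and mast cell sums overlap, as does the neutrophil sum without Mmp9, although the T cell and endothelial sums were higher in the miR-21-KD tumour in 4 of 4 pairs with the same replicate number.

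Ratios of counts within a tumour, which do not depend on the scaling of libraries, were taken against 1 marker gene of each of 4 cell types and a second epithelial one, a choice of genes and pairs made after values had been seen. The 16 complement genes that rose were chosen for having risen, so their ratios are a description. The shares over all tested genes are of genes not chosen in that way, and nothing is read from setting them side by side. Relative to Csf1r, the receptor of macrophage growth factor, 11 of the 16 complement genes that rose overlapped between groups, Cfp, C6 and Cd55 were higher in all miR-21-KD tumours, and C3ar1 and C5ar1 were lower in all of them. Of all tested genes, 1.56% were higher and 48.5% lower in all miR-21-KD tumours relative to Csf1r. The ratio of C1qa to Csf1r was 0.821, 1.04, 1.20 and 1.24 in the VC tumours and 1.04, 1.08, 1.11 and 1.40 in the miR-21-KD tumours. The groups overlapped for C1qa, although the ratio was higher in the miR-21-KD tumour in 3 of 4 pairs with the same replicate number. The ratio of Cfp to Csf1r was 0.282, 0.250, 0.324 and 0.307 in VC and 0.410, 0.374, 0.423 and 0.489 in miR-21-KD tumours, with no overlap. The ratio of C3ar1 to Csf1r was 0.435, 0.424, 0.497 and 0.417 in VC and 0.332, 0.356, 0.392 and 0.355 in miR-21-KD tumours.

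Relative to Col1a1, a collagen gene of fibroblasts, 15 of the 16 overlapped between groups, while 0.598% of all tested genes were higher and 73.0% lower in all miR-21-KD tumours. The ratio of C1s1 to Col1a1 was 0.0939, 0.0908, 0.105 and 0.128 in VC and 0.0915, 0.0747, 0.101 and 0.0964 in miR-21-KD tumours, and that of Serping1 to Col1a1 was 0.290, 0.218, 0.254 and 0.339 in VC and 0.248, 0.215, 0.257 and 0.237 in miR-21-KD tumours. The groups overlapped for both, although between tumours with the same replicate number the ratio of C1s1 was higher in miR-21-KD in 0 of 4 pairs and that of Serping1 in 1 of 4. Cd55 was the exception, at 0.00781, 0.00455, 0.00642 and 0.00579 in VC and 0.0117, 0.00887, 0.0171 and 0.0143 in miR-21-KD tumours, with no overlap. Relative to the endothelial gene Pecam1, 7 of the 16 were higher in all miR-21-KD tumours and 9 overlapped, against 7.86% higher and 16.2% lower of all tested genes. Relative to Krt18, a keratin of the carcinoma cells, 10 were higher in all miR-21-KD tumours and 6 overlapped, against 40.2% higher and 0.459% lower. Krt18 was the only epithelial marker that fell, however, and 6 of the 8 rose. Krt8, the partner keratin of Krt18, did not pass, at a log2 fold change of -0.88 (adjusted p = 0.0870). Relative to Epcam, 1 of those 6, all 16 complement genes overlapped between groups, against 0.424% higher and 17.1% lower of all tested genes, so that the ratios to an epithelial gene turned on the gene chosen.

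For the 4 genes that fell, the ratios are a description, since genes chosen for a fall are lower against markers that rose. Masp1, Cd93, C1qbp and Clu were all lower in every miR-21-KD tumour relative to Csf1r, Col1a1 and Pecam1, as were 48.5%, 73.0% and 16.2% of all tested genes. Relative to Krt18, which itself fell, each of the 4 overlapped between groups, and relative to Epcam 3 were lower in all miR-21-KD tumours and C1qbp overlapped. The ratio of Masp1 to Krt18 was 0.103, 0.111, 0.0876 and 0.0999 in VC and 0.115, 0.0879, 0.0855 and 0.0704 in miR-21-KD tumours. The ratio of Clu to Krt18 was 0.295, 0.376, 0.321 and 0.778 in VC and 0.860, 0.181, 0.310 and 0.572 in miR-21-KD tumours. Clu therefore varied against Krt18 within both groups, while the ratio of Masp1 to Krt18 stayed between 0.0704 and 0.115 in all 8 tumours. Between tumours with the same replicate number, each of these ratios was higher in the miR-21-KD tumour in 1 of 4 pairs. Whether Masp1 followed the carcinoma cells was not tested.

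**Figure D4:**
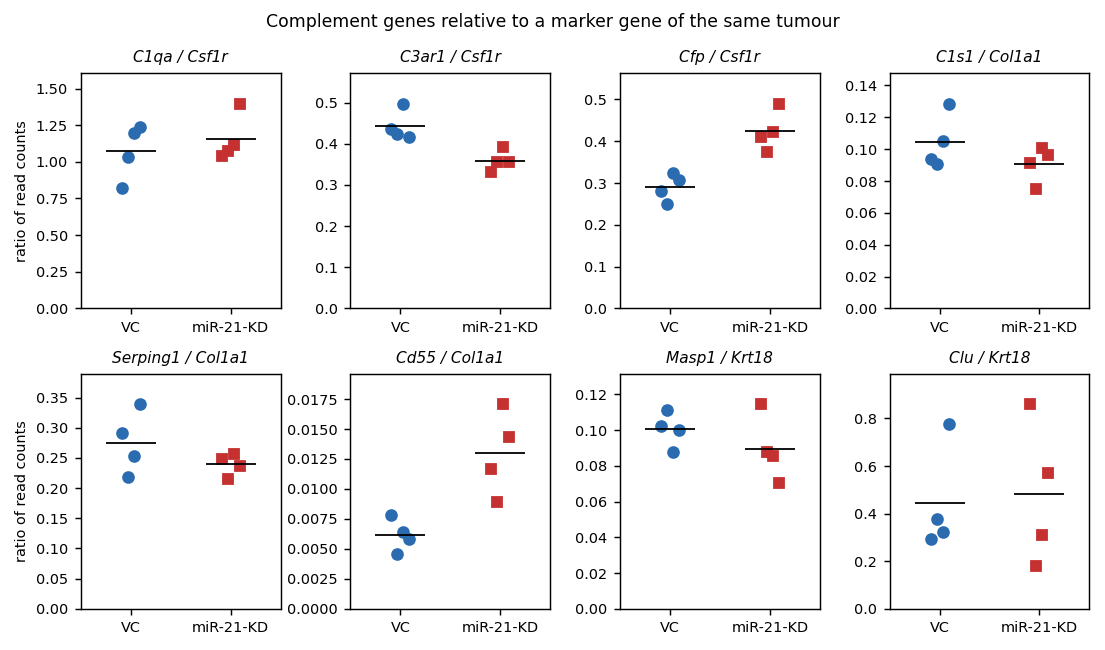
Ratio of the read counts of a complement gene to those of a marker gene in the same tumour, for 8 pairs, with circles for the 4 VC tumours, squares for the 4 miR-21-KD tumours and a line at each group mean. Cfp and Cd55 are higher and C3ar1 lower in all miR-21-KD tumours, and the groups overlap for the other 5 pairs.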

How the data were processed

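Total RNA of 8 whole tumours was sequenced, and the table that the authors deposited holds raw read counts for each Entrez gene, with no normalization. The submitters' processing notes name Subread, featureCounts, edgeR and limma and the build mm10. The annotation and strand setting for counting are not given in the sources used here, so overlapping and antisense genes cannot be told apart. Symbols were matched for 25275 of 27179 identifiers (RefSeq, GRCm38.p6). Positions and exon lengths were taken from GENCODE M21 (GRCm38), and the miRNA and promoter sequences from RefSeq.

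Counts were filtered with filterByExpr (at least 10 counts in enough tumours and 15 in all). The 14382 genes kept, with 99.85% of the counts, were scaled with TMM and tested with the robust quasi-likelihood test of edgeR 4.0.16 in R 4.3.3 on 4 against 4 tumours. Benjamini-Hochberg adjustment covered all tested genes, with a threshold of 0.05. Values are means ± SD (n = 4) unless given per tumour, and a log2 fold change is miR-21-KD over VC. The test was checked on simulated data. Alternatives were DESeq2 1.42.0, library-size and upper-quartile scaling, no filter and a filter of 10 counts in every tumour, limma-voom (limma 3.58.1) with and without quality weights, a replicate block, a 1.5-fold test, an adjusted p under 0.01, and each tumour left out in turn. The labels give both groups the replicate numbers 1 to 4, and after removal of group means the correlations of tumours with the same number were 0.272, 0.421, 0.175 and 0.376. The 12 other combinations averaged -0.105, but the removal of group means ties this average to the same-number values, so it is no separate comparison. All same-number correlations exceeded 0.1, so the numbers were taken to pair the tumours. Values with the block are given where it changed a call and for some genes whose call turned on single tumours. All other fold changes, adjusted p-values and counts of called genes, with single tumours left out too, are from fits without the block. With the block 18 complement genes rose and 4 fell, against 3309 and 3176 of 14382 tested genes.

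The complement genes, the other lists and the alternatives were chosen with earlier results of these data known. Settings added after the data were seen were Epcam as a second epithelial gene for ratios, the neutrophil sum without Mmp9 and the comparison of tumours with the same replicate number. The other genes and pairs of the ratios were also chosen after values had been seen. Named in the text were all 34 genes, and of the other complement genes those past the threshold or with a mean of at least 10 CPM in either group, while genes below this were named where few remained or where they are copies or neighbours of a named gene. A further listed gene had no match among the identifiers, and the result of 1 item under this rule is not reported here. The marker lists were written from general knowledge.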

Additional observations from a re-analysis of the deposited data

Results flagged for a closer look

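In each group of 4 tumours the gap between the highest or lowest tumour and its nearest neighbour was compared with the range of the group, both on the scale of log2 CPM. This was done for 56 groups, of which chance flags about 1 in 20. Both groups past the limit were miR-21-KD tumours in which replicate 2 lay far below the others. For C5ar1 the gap was 0.928 of the range, with 115.2 CPM in replicate 2 and 178.7 to 184.9 CPM in the other 3. For Cfi the gap was 0.977 of the range, with 1.965 CPM in replicate 2 and 4.769 to 4.869 CPM in the other 3.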

How the results depend on the processing

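Of 447 values of single complement genes under the alternatives, 396 kept their direction and their side of the threshold, 32 lost the call, 14 gained it and 5 turned direction, all of them of Masp2 and Fcna, which did not pass in any fit. With quality weights in limma-voom the log2 fold change was 0.11 for Masp2 and 0.042 for Fcna, and with single tumours left out it ran from -0.262 to 0.063 for Masp2 and from -0.471 to 0.046 for Fcna. The call was kept by 11 of the 20 called genes in all fits at the same threshold with no minimum fold change. The cause of these changes was not tested.

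The number of complement genes that rose was 4 at an adjusted p under 0.01, 3 in the test against a 1.5-fold change and 7 to 19 with single tumours left out, and the number that fell was 1 at an adjusted p under 0.01 and 1 in the 1.5-fold test. Of the other complement genes, 10 rose with DESeq2, 12 with quality weights, 10 with the replicate block, 2 at an adjusted p under 0.01, 1 in the 1.5-fold test and 3 to 10 with single tumours left out. With DESeq2, quality weights and the block, 3439, 4055 and 3309 of all 14382 tested genes rose. With single tumours left out it was 1449 to 3290 genes. Over all genes, 1426 passed at an adjusted p under 0.01, 542 passed the 1.5-fold test and 2936 to 6840 passed with single tumours left out. Of the 28 tested complement genes, the replicate block changed the call of C2 and Cfi, which passed with it, and of no other. At this depth a gene with a count of 0 may stand at up to 0.245 CPM, so Mbl1 and Mbl2 were not detectable rather than absent.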

Other observations

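Values of some neighbouring or copied complement genes are given here without a test. The ratio of the counts of C4b to its copy C4a was 20.01, 19.1, 23.1 and 25.7 in the VC tumours and 23.2, 28.4, 22.8 and 27.5 in the miR-21-KD tumours. Thbd and Cd93, whose genes lie 28.5 kb apart on chromosome 2, moved in opposite directions, with log2 fold changes of 0.96 and -1.27. C6 and C7 lie 174 kb apart on chromosome 15, and both had higher counts in each miR-21-KD tumour than in each VC tumour. The ratio of the counts of Cfd to those of the adipocyte gene Adipoq was 3.17, 2.96, 3.97 and 3.18 in VC and 4.06, 4.45, 3.34 and 3.82 in miR-21-KD tumours. Cr2, the complement receptor gene of B cells and follicular dendritic cells, had 138 counts in miR-21-KD replicate 4 and 1 to 28 counts in each of the other 7 tumours.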
